A study of Mus musculus with 12 samples.

Results

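The lysosomal system of macrophages was examined in pancreatic tumors and in normal pancreas through 49 genes on 1 array design. They are the 25 genes named in the array files with the prefix Atp6v or Atp6ap, which encode subunits of the vacuolar proton pump (V-ATPase) and its accessory proteins, and 24 further genes for lysosomal membrane proteins, hydrolases with their cofactors, and transcription factors of the pathway. Each gene was read from its brightest probe, the one with the highest mean processed signal over the arrays. The array named 27274 genes in all. Of these, 16387 were bright enough to be tested, and 42 of the 49 were among them.

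The samples were macrophages from pancreas tumor and from normal pancreas, sorted by flow cytometry straight into lysis buffer, with 6 arrays in each group. All mice of both groups were labelled female, C57/B6 and 4 to 5 months old, and the genotype field was left unfilled. The treatment text speaks of implanted tumors for all samples, whereas the series' design names wild-type, KPC and FLT3-CRE/LSL-YFP mice, and the labels tie none of these to a single sample. KPC mice are a genetic model that develops pancreatic adenocarcinoma, and FLT3-CRE/LSL-YFP mice carry a reporter for cells descended from Flt3-expressing progenitors. In each group 1 sample name stood on 2 arrays, which were averaged, so 5 samples a group were compared. Nothing in the labels says that the samples are separate animals, so p-values here measure sample-to-sample spread that may include technical spread.

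The V-ATPase moves protons into endosomes and lysosomes. Its V1 sector splits ATP in the cytosol, and its V0 sector carries the protons across the membrane. The acid lumen lets hydrolases break down the proteins, lipids and glycans that macrophages take up, and the transcription factors TFEB, TFE3 and MITF raise the expression of many of these genes together by binding E-box-like motifs near their promoters.

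The share of probes well above background ran from 39.3% to 58.7% over the 12 arrays, and the arrays of normal replicates 2 and 3, which were averaged, were the dimmest. The macrophage label was checked with 12 macrophage markers, all of which were bright enough to be tested. They held 0.354% to 0.475% of the summed signal of all tested genes in tumor samples, against 0.250% to 0.561% in normal samples. These shares and those below also depend on that sum, which includes the acinar genes. Singly, 4 of the 12 had a higher and 8 a lower mean in tumor samples. Cd163 was lower in every tumor sample than in every normal sample, with a log2 difference (tumor minus normal) of -1.77 ± 0.45 (SE). That of Adgre1 was -0.80 ± 0.24, and neither gene passed the threshold used below. Markers of some other cells moved with the groups. The summed shares of ductal and tumor epithelial, dendritic, T and NK, B, endothelial and fibroblast markers overlapped between groups. Of the 10 tested ductal and tumor epithelial genes, 2 had a higher and 8 a lower mean in tumor samples. Among them Plet1 was higher in every tumor sample than in every normal sample. It differed by 5.59 ± 1.06 (limma adjusted p = 0.0395) and passed the threshold used below. The summed signal of 18 acinar genes was 0.00771% to 0.259% in tumor samples and 0.606% to 3.73% in normal samples, and each of the 18 was lower in every tumor sample than in every normal sample. The 8 islet markers, of which Sst, Pcsk1 and Chga were too dim to be tested, held 0.00432% to 0.00708% in tumor samples and 0.0114% to 0.254% in normal samples. The summed monocyte signal ran the other way, with 0.0505% to 0.0881% in tumor samples and 0.0275% to 0.0393% in normal samples. The summed neutrophil signal did so too, with 0.0207% to 0.0275% in tumor samples and 0.0134% to 0.0203% in normal samples. Of 8 tested monocyte genes, 7 had a higher mean in tumor samples, and 3 did not overlap between groups. For 9 tested neutrophil genes these counts were 8 and 1. Csf3r, the brightest neutrophil gene, was level (log2 difference 0.0058). It stood at 4.43 in tumor replicate 5 and at 4.51 in the averaged normal replicates 2 and 3. The neutrophil shares there were 0.0207% and 0.0134%, so they ran against the level of this gene. Of the defining genes of these lists, Ly6g was too dim to be tested and Ly6c2 was not analysed here. What part these shares have in the values that follow was not tested. In sorted bulk samples, fewer cells of a type and less RNA per cell cannot be told apart.

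None of the 42 tested genes passed the threshold in either direction. With limma (two-sided, Benjamini-Hochberg over all 16387 genes, adjusted p under 0.05), 0 of the 42 were higher and 0 were lower in tumor macrophages, while over all genes 0.317% were higher and 0.513% were lower. The lowest adjusted p among the 42 was 0.195. At an unadjusted p under 0.05, 4 were higher (Neu1, Gm2a, Gla and Atp6v0a2) and 1 was lower (Smpd1), beside 6.69% and 6.25% of all genes. The tumor samples lay wholly above the normal samples for 2 of the 42, Neu1 and Gm2a, beside 1.77% of all genes, and wholly below them for 0, beside 1.67%, or 3.44% of all genes in both directions together. With so few genes these counts are close to the shares over all genes.

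The measured differences were mostly small and mostly positive. Differences are given as log2 signal in tumor minus normal, after each array was set to its 75th percentile. Of the 42 genes, 32 had a positive difference, where 49.7% of all genes did, and the median was 0.15, against -0.0031 over all genes. In size the difference was under 0.5 for 33 of them and over 1 for 4. For 27 of the 42, the 95% confidence interval stayed within a 2-fold change in either direction. The 5 genes whose interval left out 0 were those below an unadjusted p of 0.05. Signal was well above background on all 12 arrays for 34 of the 42, and 7 of the 49 genes were too dim to be tested. Atp6v1h and Ctns, both with a positive difference, were bright enough to be tested through the tumor arrays alone. No gene of the 42 was tested through the normal arrays alone.

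**Figure D1:**
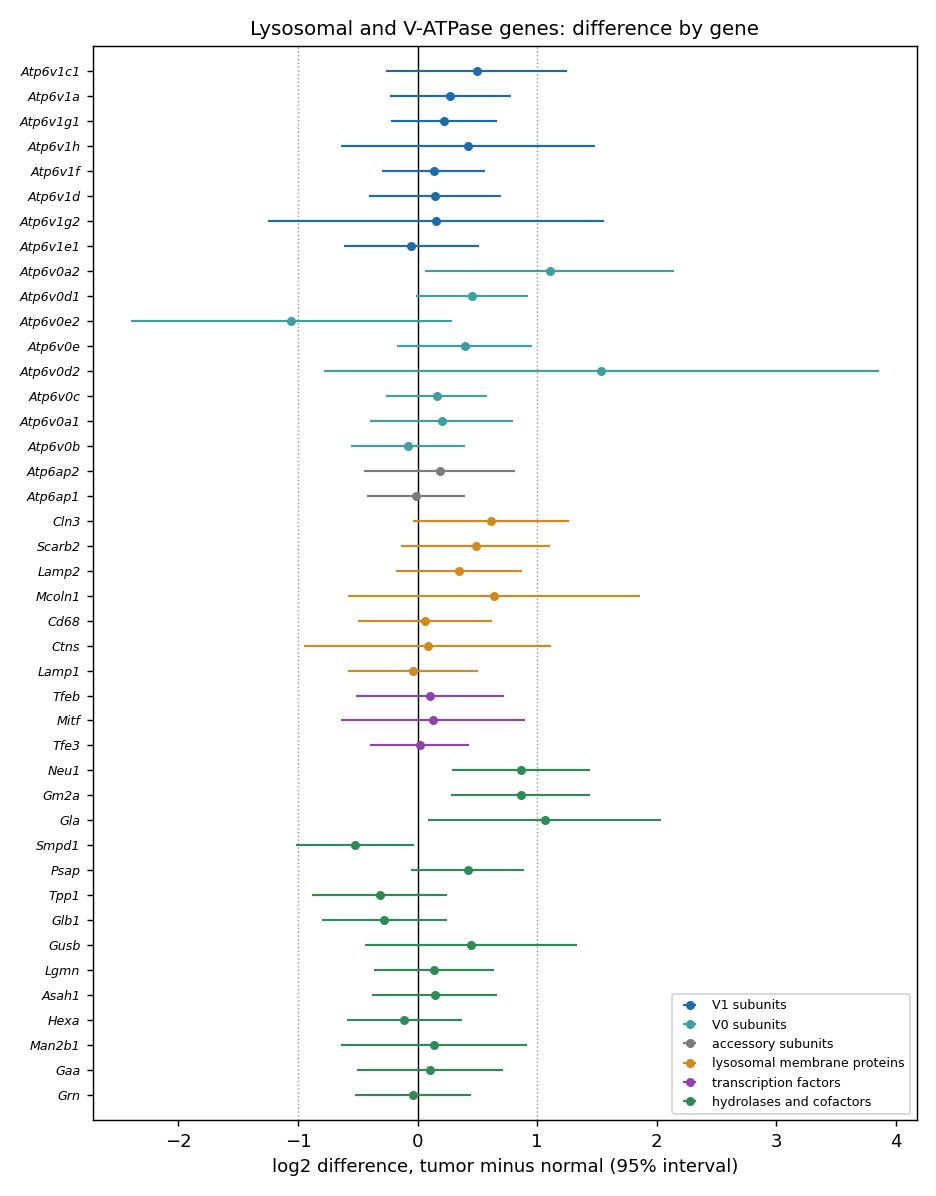
Difference in log2 signal between tumor and normal macrophages (horizontal axis) for the 42 tested genes, in the colors of their roles, with 95% confidence intervals from limma. Dotted lines mark a 2-fold change. Most intervals cover 0 and lie within the dotted lines, and the widest belongs to Atp6v0d2, whose difference was 1.54.

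Averaged over the 42 genes, each centred on its own mean over the 10 samples, the level was 0.22, 0.19, 0.14, 0.018 and 0.024 in tumor samples, against -0.077, -0.38, -0.11, 0.0087 and -0.040 in normal samples. Here and below, tumor values are listed for replicates 1, 2, 3, the mean of 4 and 6, and 5, and normal values for replicates 1, the mean of 2 and 3, 4, 5 and 6. All tumor samples lay above all normal samples, the closest pair by a small margin, and the averaged normal replicates 2 and 3 lay far below the rest. Of the summed processed signal of all tested genes, the same genes held 0.560%, 0.555%, 0.553%, 0.495% and 0.530% in tumor samples. In normal samples they held 0.471%, 0.290%, 0.414%, 0.410% and 0.499%, and the groups overlap. This sum includes the acinar genes, whose share was highest, 3.73%, in the averaged normal replicates 2 and 3. The averaged normal replicates 2 and 3 were the lowest of the 10 samples for 14 of the 42 genes, while they were lowest for 17.5% of all genes. Without them the median difference of the 42 genes was 0.092.

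**Figure D2:**
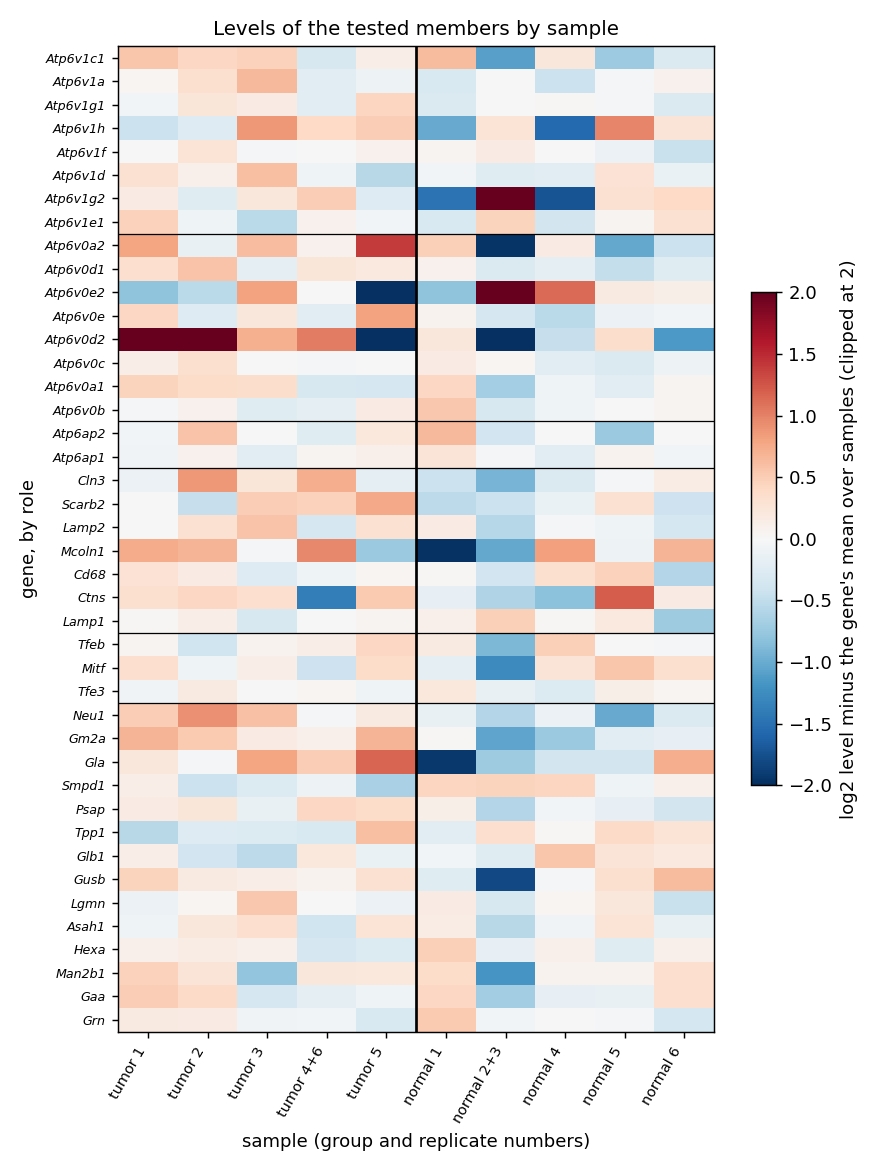
Level of each tested gene in each of the 10 samples, as log2 signal minus the gene's mean over samples, with colors limited at 2 in either direction. Genes run down by role, the 5 tumor samples stand left and the 5 normal samples right, and the column of normal replicates 2 and 3 holds the lowest value for 14 of the 42 genes.

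The promoters were searched for the E-box-like motif that TFEB and its relatives bind. RefSeq promoter sequences of build GRCm38.p6, from 250 bases before to 50 after the gene start, were at hand for 41 of the 49 genes. The letters TCACGTG, on either strand, stood in 11 of these 41 (26.8%) and in 4.29% of the promoters of 27025 genes. The shorter core CACGTG, which every TCACGTG contains, stood in the same number, 11 of 41, and in 8.09% of all genes. The 8-base palindrome TCACGTGA, a longer form of the same site, stood in 6 of 41 (14.6%), against 1.12% of all genes. A 10-base form, with 1 more fixed base on each side of the palindrome, stood in 1 of 41 (2.44%), that of Cln3, against 0.370% of all genes. The related letters TCATGTG stood in 5 of 41 (12.2%), against 4.31%. The windows with the 8-base palindrome are shown because they hold that form of the site in full, with the palindrome in capitals, 5′ to 3′ on the strand of the gene.
Atp6v0d1 (chr8:105566051-105566078, minus strand): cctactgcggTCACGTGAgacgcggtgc
Atp6v0e (chr17:26676388-26676415, plus strand): agcgcgccgaTCACGTGAgcctctgttg
Atp6v1a (chr16:44139374-44139401, minus strand): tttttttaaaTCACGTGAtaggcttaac
Cln3 (chr7:126583341-126583368, minus strand): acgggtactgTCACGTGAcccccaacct
Gla, first site (chrX:134601216-134601243, minus strand): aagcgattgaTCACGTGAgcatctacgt
Gla, second site (chrX:134601183-134601210, minus strand): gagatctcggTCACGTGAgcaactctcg
Mcoln1 (chr8:3500463-3500490, plus strand): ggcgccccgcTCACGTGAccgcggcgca
The palindrome began 4 bases before the annotated start in Atp6v0d1, 46 before it in Mcoln1, 132 before it in Atp6v1a, and 228 and 195 before it in Gla. The other 5 promoters with TCACGTG were those of Atp6v0b, Gaa, Glb1, Lamp1 and Lgmn. A match describes the letters in the window and shows no binding.

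Neu1 and Gm2a, the 2 genes whose groups did not overlap, held none of these motifs in the same window. Their 250 bases before the gene start are shown for comparison, on the plus strand, in lower case throughout since no searched motif lies in them.
Neu1 (chr17:34931003-34931252, plus strand): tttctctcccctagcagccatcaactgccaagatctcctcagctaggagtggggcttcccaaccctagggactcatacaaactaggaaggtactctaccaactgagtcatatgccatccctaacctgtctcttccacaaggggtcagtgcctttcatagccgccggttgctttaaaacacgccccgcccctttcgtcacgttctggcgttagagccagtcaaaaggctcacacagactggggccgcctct
Gm2a (chr11:55097735-55097984, plus strand): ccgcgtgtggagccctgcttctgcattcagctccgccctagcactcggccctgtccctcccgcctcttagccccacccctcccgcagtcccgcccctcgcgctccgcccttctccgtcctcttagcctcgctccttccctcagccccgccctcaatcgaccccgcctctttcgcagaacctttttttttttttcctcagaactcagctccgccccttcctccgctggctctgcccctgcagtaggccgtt
The guanine and cytosine content of these stretches was 54.4% for Neu1 and 65.2% for Gm2a. The 11 tested genes with TCACGTG had a median difference of 0.27 and the 25 tested genes with a promoter but without the motif one of 0.14. No gene of either set passed the threshold, and the medians are given as a description.

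**Figure D3:**
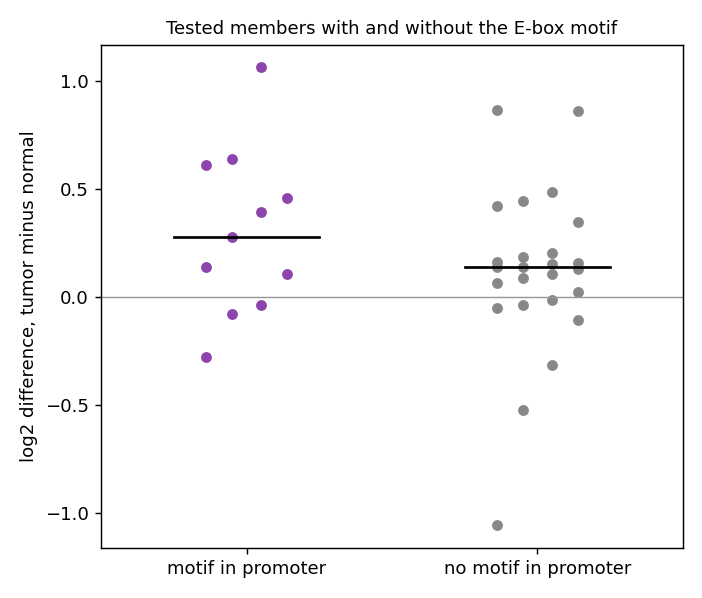
Difference in log2 signal between tumor and normal macrophages (vertical axis) for the 11 tested genes with TCACGTG in the promoter and the 25 without it, 1 point a gene, with the median as a line (0.27 and 0.14). The 2 sets of points overlap over most of their range.

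Among the hydrolases and their cofactors, all 14 of which were tested, 9 had a positive and 5 a negative difference, with a median of 0.14. Neu1, the lysosomal sialidase that trims terminal sialic acids from glycans, stood at 2.69, 3.11, 2.78, 2.15 and 2.36 in tumor samples, against 2.04, 1.60, 2.07, 1.18 and 1.89 in normal samples. The lowest tumor sample lay just above the highest normal one. The difference was 0.86 ± 0.26 (log2, SE), or 1.82-fold with a 95% interval of 1.22 to 2.71, with a limma adjusted p of 0.195 and an unadjusted p of 0.00728. Within slides 1, 2 and 3, each of which held 2 arrays a group, it was 1.05, 0.72 and 0.67. These slides are not independent, since both averaged samples lay on more than 1 of them. Its single probe lies on chromosome 17 at 35072105 to 35072164 (mm9).

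Gm2a, the activator protein that presents the ganglioside GM2 to hexosaminidase A, stood at 6.03, 5.88, 5.51, 5.45 and 6.04 in tumor samples, against 5.37, 4.29, 4.61, 5.13 and 5.18 in normal samples. Again the groups were separated by a margin smaller than the spread within either. The difference was 0.86 ± 0.26, or 1.82-fold with a 95% interval of 1.22 to 2.72 (limma adjusted p = 0.195). On the slides taken singly it was 1.13, 1.03 and 0.59. The probe lies on chromosome 11 at 54923856 to 54923915 (mm9), and another probe of the gene was not well above background on any array. Hexa, which encodes the alpha chain of the enzyme that Gm2a serves, differed by -0.11 ± 0.22.

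Gla, alpha-galactosidase A, which removes terminal galactose from glycolipids, stood at 0.13, -0.12, 0.70, 0.39 and 1.07 in tumor samples, against -2.03, -0.81, -0.47, -0.47 and 0.62 in normal samples. The highest normal sample, replicate 6, lay among the tumor samples, and normal replicate 1 was far below all others. The difference was 1.06 ± 0.44 (limma adjusted p = 0.345), and 0.71 without normal replicate 1. Gla holds 2 of the palindromes shown above, more than any other gene with that motif.

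Smpd1, acid sphingomyelinase, which splits sphingomyelin into ceramide and phosphocholine, was the 1 gene of the set with a negative difference at an unadjusted p under 0.05. It stood at 2.44, 1.88, 2.04, 2.21 and 1.66 in tumor samples, against 2.73, 2.76, 2.74, 2.22 and 2.40 in normal samples. Tumor replicate 1 lay above the normal replicates 5 and 6, so the groups overlap. The difference was -0.52 ± 0.22 (limma adjusted p = 0.357), with -0.61, -0.56 and -0.41 on slides 1, 2 and 3, and -0.32 after normexp background correction.

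**Figure D4:**
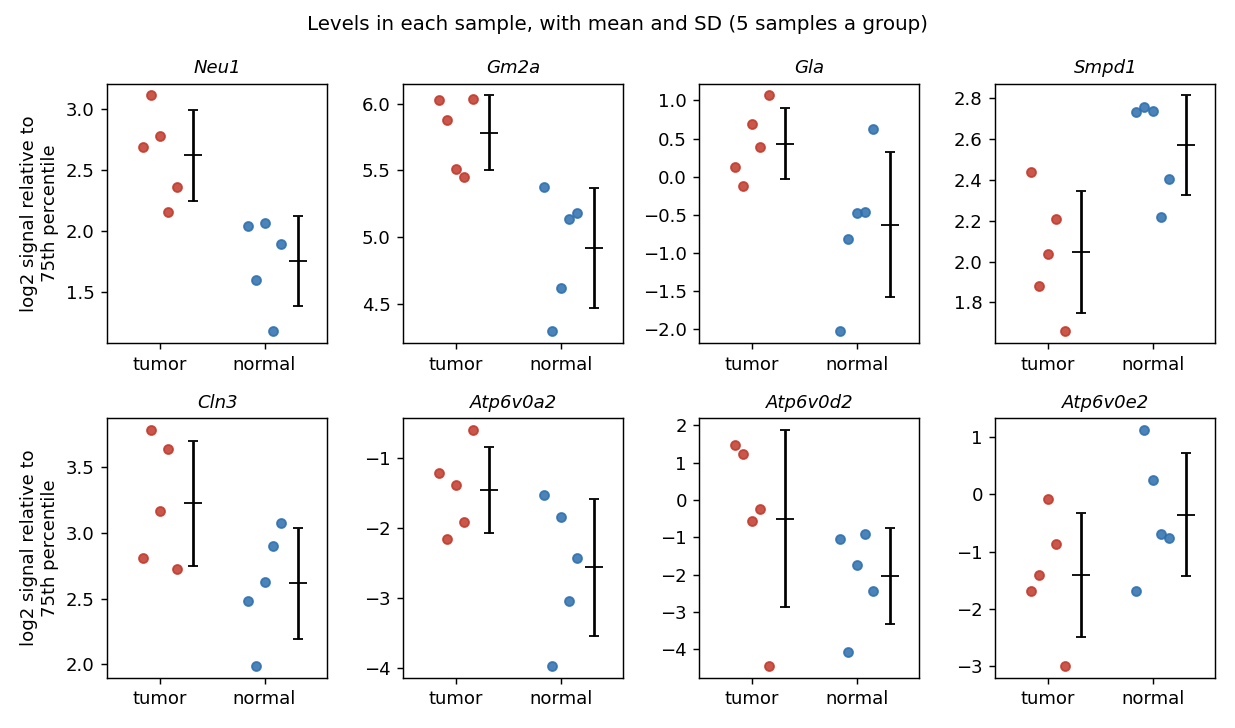
Log2 signal relative to the array's 75th percentile in each of the 5 tumor samples (left in each panel) and 5 normal samples (right), with the mean and SD as a bar, for 8 genes. Neu1 and Gm2a show no overlap between groups, Smpd1 is lower in most tumor samples, and Atp6v0d2 spans from 1.47 to -4.45 within the tumor samples.

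The other 10 hydrolases and cofactors differed by -0.32 to 0.44. Psap, the precursor of the saposins that assist sphingolipid breakdown, differed by 0.42 ± 0.21, and Gusb, beta-glucuronidase, by 0.44 ± 0.40. A second probe of Gusb, printed at 10 spots of the array, gave 0.87 ± 0.35 (limma unadjusted p = 0.0301), so its probes gave different sizes in the same direction. Lgmn (an asparaginyl endopeptidase), Asah1 (acid ceramidase), Man2b1 (alpha-mannosidase) and Gaa (the glycogen-degrading alpha-glucosidase) differed by 0.10 to 0.14. Grn, progranulin, differed by -0.038 ± 0.22. Tpp1, tripeptidyl peptidase, by -0.32 ± 0.26, and Glb1, beta-galactosidase, by -0.28 ± 0.24, were the largest negative differences after that of Smpd1, and the Tpp1 probe stood well above background on 6 of 6 tumor and 3 of 6 normal arrays. None of these 10 passed the threshold, and the 95% intervals of 9 of the 14 hydrolases and cofactors stayed within 2-fold.

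The 7 lysosomal membrane proteins had a median difference of 0.35, with 6 positive. Cln3, a membrane protein lost in juvenile Batten disease, stood at 2.81, 3.78, 3.17, 3.64 and 2.72 in tumor samples, against 2.48, 1.99, 2.63, 2.90 and 3.07 in normal samples. Tumor replicates 2, 3 and 4 with 6 lay above all normal samples, and the other tumor samples lay among them. The difference was 0.61 ± 0.30 (limma adjusted p = 0.420). A second probe of almost the same brightness gave 0.0037 ± 0.25, so the probes of Cln3 disagree and its difference depends on which is read.

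Scarb2, also called LIMP-2, carries beta-glucocerebrosidase to lysosomes. It stood at 0.57, 0.11, 1.07, 1.04 and 1.33 in tumor samples, against 0.049, 0.15, 0.44, 0.88 and 0.16 in normal samples, a difference of 0.49 ± 0.28. Tumor replicate 2 lay at the level of the low normal samples and normal replicate 5 above 2 tumor samples. Lamp2, a main glycoprotein of the lysosomal membrane that also serves autophagy, stood at 2.48, 2.77, 3.03, 2.12 and 2.77 in tumor samples, against 2.63, 1.90, 2.42, 2.38 and 2.11 in normal samples, a difference of 0.35 ± 0.24. Its second probe gave 0.11 ± 0.22.

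Mcoln1, the lysosomal calcium channel TRPML1, stood at 0.47, 0.40, -0.31, 0.69 and -1.02 in tumor samples, against -2.25, -1.29, 0.54, -0.37 and 0.40 in normal samples. Low and high values occurred in both groups. The difference was 0.64 ± 0.55 (limma adjusted p = 0.656). It was 2.28, 0.51 and -0.21 within slides 1, 2 and 3, 0.23 without normal replicate 1 and 0.18 under normexp background correction. A second probe of the gene, well above background on 6 of 6 tumor and 6 of 6 normal arrays, gave 0.56 ± 0.25. Its limma p was 0.0485 unadjusted and 0.385 adjusted over all probes. Cd68, the glycoprotein used as a macrophage marker, differed by 0.065 ± 0.25, Lamp1 by -0.039 ± 0.25, and Ctns, the cystine exporter, by 0.085 ± 0.47. The Ctns probe stood well above background on 3 of 6 tumor and 1 of 6 normal arrays.

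The transcription factors of the pathway were close to level. Tfeb stood at 0.058, -0.40, 0.061, 0.12 and 0.40 in tumor samples, against 0.17, -0.90, 0.48, -0.0061 and -0.021 in normal samples. Mitf stood at 1.12, 0.71, 0.92, 0.37 and 1.15 in tumor samples, against 0.61, -0.48, 1.05, 1.34 and 1.12 in normal samples. Tfe3 stood at 3.75, 4.01, 3.81, 3.87 and 3.74 in tumor samples, against 4.04, 3.68, 3.55, 3.94 and 3.87 in normal samples. All 3 overlap between groups, and the averaged normal replicates 2 and 3 were the lowest sample for Tfeb and Mitf. The differences were 0.11 ± 0.28 for Tfeb, 0.13 ± 0.35 for Mitf and 0.020 ± 0.19 for Tfe3, each with a 95% interval within 2-fold. Without normal replicates 2 and 3 they were -0.10, -0.17 and -0.015. These are transcript levels, whereas the factors are mainly controlled by phosphorylation and entry into the nucleus, which arrays do not measure.

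Of the 13 V1 genes, 8 were tested. Their median difference was 0.19, from -0.052 to 0.49, and 5 of the 8 had an interval within 2-fold. Atp6v1c1, the C subunit that helps join V1 to V0, stood at -1.25, -1.39, -1.35, -2.12 and -1.67 in tumor samples, against -1.17, -2.89, -1.58, -2.53 and -2.09 in normal samples, a difference of 0.49 ± 0.34. Normal replicate 1 was the highest of all 10 samples and the groups overlap. Under normexp background correction the difference was -0.061, and the probe was well above background on 6 of 6 tumor and 4 of 6 normal arrays.

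Atp6v1a, the catalytic A subunit, stood at 1.87, 2.15, 2.47, 1.61 and 1.72 in tumor samples, against 1.52, 1.84, 1.40, 1.79 and 1.91 in normal samples, a difference of 0.27 ± 0.23. Atp6v1g1, a subunit of the outer stalk, stood at 1.80, 2.10, 2.02, 1.65 and 2.29 in tumor samples, against 1.58, 1.87, 1.88, 1.85 and 1.58 in normal samples, a difference of 0.22 ± 0.20. For both genes some tumor samples exceeded all normal samples (2 for Atp6v1a, 3 for Atp6v1g1), and the others lay among them. On slide 3 alone Atp6v1a differed by -0.20, and on slide 2 alone Atp6v1g1 by -0.091. Atp6v1h, the regulatory H subunit, stood at -4.15, -3.99, -2.85, -3.33 and -3.23 in tumor samples, against -4.73, -3.44, -5.28, -2.75 and -3.46 in normal samples, a difference of 0.42 ± 0.48. It was near the limit of detection, well above background on 4 of 6 tumor and 1 of 6 normal arrays, and its difference was -0.23 under normexp background correction and -0.22 on slide 3.

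The remaining tested V1 genes were Atp6v1d, Atp6v1e1, Atp6v1f and Atp6v1g2, which differed by 0.15, -0.052, 0.14 and 0.15. Atp6v1g2 is known as a neuronal form of the G subunit. Its probe was well above background on 6 of 6 tumor and 4 of 6 normal arrays. Its level reached 0.50 in the averaged normal replicates 2 and 3, above every other sample. These arrays also held the highest shares of islet markers, 0.254%, and of acinar markers, 3.73%. Normal replicate 1, with the next highest islet share, 0.0610%, stood at -3.08. The part of these shares in the level of Atp6v1g2 was not tested. A second probe of the gene gave -1.13 ± 0.60, so the probes disagree in sign. The V1 genes left untested were Atp6v1b1, Atp6v1b2, Atp6v1c2, Atp6v1e2 and Atp6v1g3. The only probe of Atp6v1b2, the widely expressed B subunit, was not well above background on any of 12 arrays, and the same held for Atp6v1c2 and Atp6v1g3. A dim probe does not show that a transcript is absent. The kidney-type subunit Atp6v1b1 was well above background on 1 array of each group, and Atp6v1e2, a testis form, on 2 tumor arrays and 1 normal array.

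Of the 9 V0 genes, 8 were tested, with a median difference of 0.30. Atp6v0a2, an a-subunit isoform of endosomes and the Golgi that forms part of the proton path, stood at -1.22, -2.16, -1.39, -1.92 and -0.61 in tumor samples, against -1.53, -3.97, -1.84, -3.04 and -2.43 in normal samples. Normal replicates 1 and 4 each lay above 2 of the tumor samples. The difference was 1.10 ± 0.47 (limma adjusted p = 0.357), with 1.03, 1.27 and 1.48 on slides 1, 2 and 3. It was 0.26 under normexp background correction, and the probe stood well above background on 6 of 6 tumor and 3 of 6 normal arrays. Without normal replicates 2 and 3 it was 0.75.

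Atp6v0d1, the widely expressed d subunit that links the V0 ring to the central stalk, stood at 2.48, 2.70, 1.93, 2.37 and 2.33 in tumor samples, against 2.22, 1.84, 1.93, 1.65 and 1.89 in normal samples. Tumor replicate 3 alone lay among the normal samples. The difference was 0.46 ± 0.21, or 1.37-fold with a 95% interval of 0.991 to 1.90 (limma adjusted p = 0.399). Atp6v0e, a small membrane subunit, stood at 2.77, 2.10, 2.58, 2.13 and 3.16 in tumor samples, against 2.42, 2.01, 1.80, 2.23 and 2.29 in normal samples, a difference of 0.39 ± 0.26. Both genes hold the palindrome shown above.

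Atp6v0e2, the paralog of Atp6v0e, had the most negative difference of the 42 genes. It stood at -1.68, -1.41, -0.082, -0.87 and -3.00 in tumor samples, against -1.68, 1.12, 0.26, -0.70 and -0.76 in normal samples. The groups overlap widely, and the highest value was again that of normal replicates 2 and 3. The difference was -1.06 ± 0.61 (limma adjusted p = 0.498), and -0.66 without tumor replicate 5. The acinar and islet shares given above run in the same direction between the groups. By sample, normal replicates 2 and 3 held the highest acinar share, 3.73%. Tumor replicate 5, the lowest for Atp6v0e2, held the highest acinar share of the tumor samples, 0.259%. The part of these shares in the difference of Atp6v0e2 was not tested.

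Atp6v0d2, the d-subunit isoform found in osteoclasts and some macrophages, was singled out after its values were seen because it had the widest spread. It stood at 1.47, 1.24, -0.56, -0.25 and -4.45 in tumor samples, against -1.05, -4.07, -1.74, -0.92 and -2.43 in normal samples. The 4 higher tumor samples exceeded all normal samples, and tumor replicate 5 was the lowest of all 10. The difference was 1.54 ± 1.05 with a 95% interval of -0.79 to 3.86 (limma adjusted p = 0.570). The probe was well above background on 5 of 6 tumor and 4 of 6 normal arrays, and another probe of the gene on none. Its level therefore varied by more within the tumor group than between the group means.

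The other V0 genes had small differences. Atp6v0c, which encodes the proton-carrying ring subunit, differed by 0.16 ± 0.19, Atp6v0b by -0.080 ± 0.22 and Atp6v0a1 by 0.20 ± 0.27. A dim second probe of Atp6v0a1, well above background on 6 of 6 tumor and 2 of 6 normal arrays, gave 1.25 ± 0.46. Atp6v0a4, the kidney-type a subunit, was not well above background on any array. Of the accessory genes, Atp6ap1 (Ac45), which takes part in V-ATPase assembly, stood at 3.05, 3.20, 2.91, 3.18 and 3.22 in tumor samples, against 3.37, 3.09, 2.91, 3.19 and 3.06 in normal samples, a difference of -0.014 ± 0.19. Atp6ap2, the prorenin receptor, stood at 0.83, 1.45, 0.89, 0.65 and 1.10 in tumor samples, against 1.54, 0.51, 0.89, 0.15 and 0.90 in normal samples, a difference of 0.19 ± 0.29. Both had intervals within 2-fold, and the third, Atp6ap1l, was well above background on 1 normal array alone.

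Whether paralogous subunits shifted against each other was asked for 6 pairs in which both were tested, with Tcirg1, the a3 isoform, as a partner of the other a subunits. The log2 ratio of Atp6v0a1 to Atp6v0a2 differed by -0.90 between tumor and normal samples, with the lowest p of the 6 pairs (two-sided exact permutation test over all assignments of the samples, p = 0.0635, adjusted over pairs 0.381, where 0.00794 is the smallest p possible). The ratio of Atp6v0e to Atp6v0e2 differed by 1.45 (exact p = 0.127) and that of Atp6v0d2 to Atp6v0d1 by 1.08 (exact p = 0.389). No pair passed after adjustment over the 6. Under normexp background correction the ratio of Atp6v0a1 to Atp6v0a2 differed by -0.011 and that of Atp6v0d2 to Atp6v0d1 by 0.36. Without tumor replicate 5 the 3 values were -0.58 for Atp6v0a1 to Atp6v0a2, 0.90 for Atp6v0e to Atp6v0e2 and 2.06 for Atp6v0d2 to Atp6v0d1, and the last was 0.61 without tumor replicate 1 and 0.59 without normal replicates 2 and 3.

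The wider pathway was described with lists of related genes, and again 0 genes of the lists passed the threshold in either direction. Of 22 tested lysosomal hydrolases outside the set, 13 had a positive difference, with a median of 0.063. Acp5, tartrate-resistant acid phosphatase, stood at 4.54, 4.28, 4.25, 2.99 and 4.15 in tumor samples, against 2.65, 3.93, 2.06, 1.77 and 1.56 in normal samples. All tumor samples but 1 exceeded all normal samples, and the difference was 1.65 ± 0.46 (limma adjusted p = 0.161). Manba, beta-mannosidase, differed by 1.68 ± 0.56 but was well above background on only 1 of 6 normal arrays, and Arsb, arylsulfatase B, differed by -0.88 ± 0.30.

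Of 17 other membrane proteins and transporters the median was 0.086. Npc1, the cholesterol exporter of late endosomes, stood at 1.38, 1.05, 1.50, 1.32 and 1.09 in tumor samples, against 0.98, 0.62, 0.86, 0.58 and 0.75 in normal samples. All its tumor samples exceeded all its normal samples, with a difference of 0.51 ± 0.19 (limma adjusted p = 0.305). Tcirg1 differed by 0.54 ± 0.27 and Laptm4a, a small transmembrane protein, by -0.46 ± 0.21. For the 14 genes of enzyme sorting the median was 0.23. Sumf1, which activates lysosomal sulfatases, differed by 0.92 ± 0.28, the mannose 6-phosphate receptor gene M6pr by 0.53 ± 0.21, and Gnptg, a subunit of the enzyme that adds this tag, by -0.55 ± 0.22.

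The 6 tested V-ATPase assembly factors had a median of -0.082. Among them Wdr7 and Rogdi, which belong to the complex that rejoins V1 and V0, differed by 1.25 ± 0.35 and 1.49 ± 0.47 (limma adjusted p = 0.154 and 0.214), and all tumor samples exceeded all normal samples for Wdr7. Rnasek, a small protein bound to V0, differed by -0.27 ± 0.25. The 16 genes of mTORC1 and TFEB regulation had a median of 0.076, led by Rptor (0.57 ± 0.36), Lamtor1 (0.35 ± 0.25) and Lamtor2 (0.22 ± 0.22). The 17 autophagy genes had a median of 0.039, with Sqstm1 at -0.48 ± 0.23, Becn1 at -1.26 ± 0.67 and Map1lc3a at -0.58 ± 0.34. The Becn1 probe stood well above background on 1 of 6 tumor and 3 of 6 normal arrays, and the Rptor probe on 6 of 6 tumor and 3 of 6 normal arrays.

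Of 8 genes of osteoclasts and giant cells, the cells best known for Acp5 and Atp6v0d2, 4 were positive and 4 negative, with a median of 0.044. Dcstamp, a membrane protein needed for macrophage fusion, differed by 2.23 ± 0.72 and Mmp9, a gelatinase, by -2.37 ± 0.61, neither past the threshold (limma adjusted p = 0.221 and 0.124). The 11 tested housekeeping genes had a median of -0.041, close to that of all genes.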

How the data were processed

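RNA of sorted macrophages was amplified with the Sigma-WTA2 kit, labelled chemically with Cy5 and hybridized to an Agilent mouse array, per the labels' protocols, so a fold is a fold of amplified signal. Arrays were read in 1 color with Agilent Feature Extraction 11.5.1.1, per the submitters' processing notes. The authors deposited intensity values per spot (the processed, mean and local background signals) with flags for outliers and signal well above background. A table of probe values on the log2 scale was deposited as well. Its columns each had a median of 7.08 and matched quantile-normalized processed signals (lowest correlation 0.9999), which settled its scale.

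Control spots and spots with outlier flags (0.401%) were left out, and 0 spots were saturated. Spots were averaged to 39429 probes on the log2 scale and the array's 75th percentile was subtracted. A probe was kept if 3 or more of the 6 arrays of a group had it well above background (22446 probes). Names came from accessions (28025 probes), symbols (3413) or synonyms (295) in a GRCm38.p6 gene table, or from the files (4985), and 2711 probes had none. Positions of probes follow the array's own annotation (mm9), for which no exon or intron annotation was used here. Of the 49 genes, 15 had several probes.

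Arrays that share a sample name correlated at 0.993 and 0.995, against at most 0.967 for others of a group. Tumor replicates 4 and 6 and normal replicates 2 and 3 were each averaged. The comparison used lmFit and eBayes of limma 3.58.1 (R 4.3.3) on all 16387 genes, and the fit was tested on simulated data. The 3 slides held 2 arrays of each group. The number of arrays limits the precision, and the median standard error of a log2 difference was 0.36. Alternatives covered background correction, scaling, filter, probe choice, flags, averaging, slide, variance model, threshold and leaving out each sample.

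The genes, lists and tests were chosen with earlier results of these data known. Values in every sample were given for the 4 genes with the smallest p in each role, for the transcription factors, and for Atp6v0d2 as stated. For the wider lists the 3 genes with the smallest p were named.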

Additional observations from a re-analysis of the deposited data

Results flagged for a closer look

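Single samples stood far from the other 4 of their group for 4 of the 42 genes. Over 84 groups of 5 samples, 5 had an end value whose gap to its neighbor exceeded 0.71 of the group's range, and chance gives about 1 in 20. Ctns was at -4.92 (log2 signal relative to the 75th percentile) in the averaged tumor replicates 4 and 6, against -3.21 in the nearest tumor sample. Lgmn was at 5.28 in tumor replicate 3, against 4.78 in the nearest. Man2b1 was at 2.55 in tumor replicate 3, against 3.55 in the nearest tumor sample, and at 2.16 in the averaged normal replicates 2 and 3, against 3.41 in the nearest normal sample. Tpp1 was at -1.89 in tumor replicate 5, against -2.74 in the nearest.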

How the results depend on the processing

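The count of the 42 genes past the threshold was 0 in each direction under every alternative run with an adjusted p, slides and left-out samples included, and 4 higher and 1 lower at an unadjusted p under 0.05. Over all genes 136 passed, against 217 with normexp, 237 with an intensity trend and robust variance, 267 at an adjusted p under 0.1, 460 with the 12 arrays as separate samples, 2121 at an unadjusted p under 0.05, and 0 within slides 1, 2 and 3. Leaving out each sample gave 63 to 198. The median difference of the tested genes, 0.15, was 0.31, 0.29 and -0.020 within slides 1, 2 and 3 and 0.092 to 0.26 with a sample left out. The sign was opposite under normexp for Atp6v1c1 (-0.061), Atp6v1h (-0.23), Atp6ap1 (0.095) and the ratio of Atp6v0a2 to Tcirg1 (-0.40). It was also opposite with 12 separate arrays for Atp6ap1 (0.0028), on slide 2 for Atp6v1g1 (-0.091) and Atp6ap1 (0.067), on slide 3 for Atp6v1a (-0.20), Atp6v1h (-0.22), Atp6ap1 (0.063), Mcoln1 (-0.21), Mitf (-0.45) and Tfe3 (-0.11), and with all probes averaged for Atp6ap1 (0.058) and Tfe3 (-0.036). With a sample left out, the range was -0.067 to 0.048 for Atp6ap1, -0.10 to 0.24 for Tfeb, -0.17 to 0.28 for Mitf, -0.047 to 0.076 for Tfe3 and -0.45 to 0.51 for the ratio of Atp6v1g1 to Atp6v1g2. The causes were not tested. Neu1 stayed between 0.67 and 1.05 and Gm2a between 0.59 and 1.13 over the other settings. Their lowest limma adjusted p-values, 0.086 and 0.068, both came with the 12 arrays as separate samples. That setting counts arrays of the same sample name as independent. No paired analysis was possible because the replicate numbers follow accession order and no label pairs a tumor with a normal sample. With slide as a block and sample name as a random block, 149 genes passed. Signal near background on some arrays limits what can be read from the brightest probes of Atp6v0a2, Atp6v0d2, Atp6v1c1, Atp6v1g2, Atp6v1h, Ctns, Mcoln1 and Tpp1. With 5 samples a group, only 27 of the 42 intervals stay within 2-fold.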

Other observations

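Genes known from osteoclasts and giant cells differed among themselves in tumor replicate 5. Where Atp6v0d2 stood at -4.45 there, against -0.56 to 1.47 in the other tumor samples, Dcstamp stood at 0.69, within its range of -0.56 to 1.91 over tumor samples, and Acp5 at 4.15, within its range of 2.99 to 4.54. Mmp9 stood at -3.98 there, the lowest of the 10 samples, against -2.25 to -0.75 in the other tumor samples and -1.08 to 1.42 in normal samples. These genes were chosen after their values were seen. The Mmp9 and Atp6v0d2 probes were each well above background on 5 of 6 tumor arrays. Values as low as -3.98 and -4.45 lie near the limit of detection. Normal samples ran from -4.07 to -0.92 for Atp6v0d2, from -3.87 to -0.0030 for Dcstamp and from 1.56 to 3.93 for Acp5.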
